A study of Mus musculus with 6 samples.

Results

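A microRNA 6mer site is a stretch of 6 bases in a transcript that pairs with part of the seed of the microRNA, and it is the shortest match usually counted as a site. The oligos described here are the array probes that hold such a 6mer for miR-26 and no longer match. Of the 55681 different mouse probes on the array, each 60 bases long and written in the sense of the transcript, 1124 held the complement of nucleotides 2 to 7 or 3 to 8 of miR-26a while lacking any 7mer or 8mer. Among these, 557 held the word for nucleotides 2 to 7, 565 held the word for nucleotides 3 to 8, and 2 held both. For comparison, 54025 probes held no miR-26 site, and 142 held a 7mer-m8, 292 a 7mer-A1 and 97 an 8mer.

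The RNA came from 1676 cells, a mouse pre-B cell line of genotype SLP-65-/- LAT-/- that lacks the adaptor proteins SLP-65 and LAT, stays at the pre-B cell stage and needs IL-7 for growth. All cells compared here carried both deletions, were kept in IL-7, and had been infected with a retroviral vector and selected with puromycin. The control group had the vector without insert, the miR-26a group a vector for hsa-miR-26a-2, and the sponge group a vector whose transcript carries repeated binding sites that take up miR-26 family members. Each group was measured on 2 single-colour Agilent arrays, 1 from each of 2 experiments, and no array of a scrambled sponge was analysed here. All results therefore describe 1 cell line, and the level of miR-26a itself was not analysed here.

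MicroRNAs guide a protein complex to messenger RNAs, mostly through bases near their 5′ end, the seed, and the bound transcript is then translated less and degraded sooner. Sites that pair with more of the seed are generally repressed more, in the order 8mer, 7mer and 6mer, and a match to nucleotides 3 to 8 is regarded as a weaker, offset kind of 6mer. A sponge is a decoy transcript that competes for the microRNA, so that its targets can rise. In B cell precursors the miR-26 family is studied for its part in the step from the growing pre-B cell to the immature B cell.

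The mature sequences of miR-26a and miR-26b are shown because their seeds decide which words were searched. They were taken from RefSeq, run 5′ to 3′, and have nucleotides 2 to 8 in capitals.
miR-26a: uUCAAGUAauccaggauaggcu
miR-26b: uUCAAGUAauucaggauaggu
Both microRNAs share this seed. The complement of nucleotides 2 to 7 is ACTTGA, and that of nucleotides 3 to 8 is TACTTG. The 7mer-m8 is TACTTGA, the 7mer-A1 is ACTTGAA, and the 8mer, TACTTGAA, joins them, so that the longer words contain the shorter ones. Counting those inside longer sites, ACTTGA was found in 1.96% of all probes and TACTTG in 1.46%, while their counterparts on the other strand, TCAAGT and CAAGTA, were found in 1.92% and 1.51%. The word is a feature of the probe and not a mapped binding site. A probe need not lie in the 3′ untranslated region, and the base beyond its ends is not known, so 9 of the tested probes with ACTTGA and 4 with TACTTG that have the word at an end could belong to a longer site in the transcript.

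The probes with the largest changes upon miR-26a expression are shown as 30-base windows, in lower case with the 6mer in capitals. The first set holds the 12 probes of named genes that fell most.
Rag2: taacatgttgcccTACTTGtgatgttgaca
Rasl10a: gggtcataagcacagatggaaaggACTTGA
Fam117a: cagggccagaacACTTGAccaatcagctgt
Ero1lb: tctagcACTTGAcagcaagcctgactgaaa
Fbxl19: gctccacccttcACTTGAgttggggtgggg
B3gnt5: tcccagatggtcACTTGAgttttaaaaaat
Mgst1: ctaaggagcagactgTACTTGtaaagagaa
Eif2s1: taattccagTACTTGggaggctagcctagt
Evi5: acctaaaatgtcTACTTGtgcctttgcttt
Glb1: tttcctgacctgACTTGAccatcggtggcc
Tubb2b: ACTTGAgatctttctgaactcctgttgtaa
Ccdc28a: atgttgaataagTACTTGtgagatttgcta
The second set holds 7 of the 8 probes of named genes that rose, the predicted gene Gm7120 being passed over by the rule for named genes.
Tnni2: ccagtctgggagTACTTGgcctcgctccaa
Mmd: gaataaagttgtTACTTGggttgactccat
Gsr: taaagttagACTTGAggctggttaggtaaa
Camta2: cactttcTACTTGtgcatgggcttggttta
Ndufaf4: caTACTTGcctcgagattccacgggaaaag
Dnajc27: ttccagacctttTACTTGtccatagttgac
Pycrl: agaagcgttgacTACTTGtaagatgctatc
The set that fell has 7 probes with ACTTGA and 5 with TACTTG, whereas the set of 7 that rose has a single probe with ACTTGA, that of Gsr. In the probe of Rasl10a the word ends at base 60 and in that of Tubb2b it starts at base 1, so for these probes a longer match in the transcript was not tested.

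On each array 28823 to 29800 of 59305 spots were well above background, and 29.6% to 33.6% had been set to the floor value of the scanner software. Replicates of a group correlated at 0.996 to 0.997 across probes, and all arrays lay on 1 slide. All 10 pre-B cell markers examined were well above background on all 6 arrays, as were 5 of 8 myeloid markers, 2 of 5 markers of T and NK cells and 1 of 3 stromal markers. The summed normalized intensity of the myeloid markers was 3947 to 5021 in control cells, 4310 to 5069 with miR-26a and 3411 to 4874 with the sponge. That of the T and NK cell markers was 1392 to 1413, 1297 to 1418 and 1068 to 1202 in the same order, so that the sponge arrays lay below the others. The few stromal markers gave 29.8 to 32.6, 20.7 to 26.2 and 27.6 to 33.2, with the miR-26a arrays lowest. These stromal sums all lay below 50, the signal limit used for testing a single probe, so their order is not read as a difference. Cd8a, Ncr1, Cd14, Col1a1 and Col3a1 were above background on no array, and the part of these markers in the results was not tested.

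Of the 1124 probes, 418 were bright enough to be tested, 204 with ACTTGA and 214 with TACTTG. This share of 37.2% compared with 36.2% of all probes, and 516 of the 706 probes left out were above background on no array. All 418 were well above background on all 6 arrays. They had a median of 25 G and C bases, against 26 in tested probes with no site. The tested probes with ACTTGA had a median of 26 and those with TACTTG a median of 23, so values below are also given less the median of probes with no site and the same number of G and C bases. Of the 418, 330 carry the names of 324 genes and 88 have no gene name. Members of the set are separate probes and not replicates of a condition, and 6 genes have more than 1 of them.

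Upon miR-26a expression, 30 of the 418 probes fell and 10 rose relative to control, by limma at a Benjamini-Hochberg adjusted p under 0.05, with all 20168 tested probes in the adjustment. The 30 that fell are 7.18% of the 418, against 5.14% of all probes tested, and the 10 that rose are 2.39%, against 4.5% of all probes. The 2 kinds of 6mer differed in these counts. With ACTTGA, 20 of 204 probes (9.80%) fell and 1 (0.490%) rose. With TACTTG, 10 of 214 (4.67%) fell and 9 (4.21%) rose, which lies close to the shares over all probes. Among probes with no site and the same number of G and C bases, the shares were 5.04% and 4.60% beside ACTTGA, and 5.26% and 4.63% beside TACTTG. No test was made of the difference between the 2 kinds, since the probes were chosen with results of these arrays known. In whole-cell RNA a lower value cannot be told apart as fewer cells that express a gene or as less RNA in each cell.

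These counts depend on the pairing of arrays by experiment and on the few arrays. Without the experiment as a block, 6 of the 418 probes fell, 3 with each word, and 1 rose. Without control replicate 1 the count that fell was 5 (3 with ACTTGA and 2 with TACTTG), and without control replicate 2 it was 3 (2 and 1), so the difference in counts between the words was not seen without the block and was 1 probe without either control array. With no filter on dim probes, none of the 1124 6mer probes passed the adjusted limit in limma, Rag2 included (adjusted p = 0.232), while 82 (7.3%) were lower and 61 (5.43%) higher at an unadjusted p under 0.05, against 5.69% and 6.01% of all 55681 probes.

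Most probes moved little. The log2 change with miR-26a, relative to control, had a median of -0.0015 over the 418 probes, and the middle 80% of them lay between -0.33 and 0.24. Less the probes with no site at like GC content, the median was -0.014 for all 418 together. For ACTTGA it was -0.061, with -0.085 in the first experiment and -0.051 in the second, and 127 of 204 probes (62.3%) lay below the no-site median. For TACTTG it was 0.041, with 0.035 and 0.024 in the experiments, and 96 of 214 (44.9%) lay below. Hence the median of probes with ACTTGA was below that of no-site probes in both experiments, and the median of probes with TACTTG was above it in both. The TACTTG value shrank to 0.012 without miR-26a replicate 1, 0.027 without control replicate 2 and 0.024 with normexp. For all 418 together the value was -0.0047 without miR-26a replicate 2. Single probes varied with an SD of 0.29 with ACTTGA and 0.33 with TACTTG in their log2 change over both experiments. The SD for TACTTG includes the Rag2 probe at -3.36. The middle 80% of probes lay between -0.39 and 0.18 with ACTTGA and between -0.24 and 0.28 with TACTTG.

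Probes with longer sites, measured the same way, give the scale for these values. The median log2 change less no-site probes was -0.065 for the 50 tested 7mer-m8 probes, -0.11 for the 110 with a 7mer-A1 and -0.24 for the 38 with an 8mer. The share that fell was 12% for the 7mer-m8, 12.7% for the 7mer-A1 and 34.2% for the 8mer, with 6, 14 and 13 probes. By experiment the medians were -0.12 and -0.11 for the 7mer-m8, -0.13 and -0.11 for the 7mer-A1 and -0.23 and -0.26 for the 8mer. In both experiments the median of the ACTTGA probes was closer to the no-site level than that of any longer site, and the median of the TACTTG probes lay on the other side of the no-site level.

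The same measure was taken for the 15 other 6-base words that match miR-26a along its 22 nucleotides, each over 134 to 589 tested probes without a 7mer. Their medians ran from -0.027 to 0.031, the share that fell from 3.66% to 7.72% and the share that rose from 1.99% to 9.67%. ACTTGA therefore had the lowest median and the highest share that fell among the 17 words. TACTTG had the highest median over both experiments, but GGATTA was higher in the first experiment (0.036 against 0.035) and ATTACT in the second (0.028 against 0.024). The word for nucleotides 1 to 6, CTTGAA, which overlaps ACTTGA, had a median of -0.023 over 365 probes, of which 23 fell and 13 rose. On the other strand, TCAAGT had a median of -0.001 over 381 probes, of which 20 fell and 15 rose, and CAAGTA a median of -0.001 over 286, of which 13 fell and 7 rose. Probe sense was checked on the 472 probes with only a 6mer whose strand is given both in the array design and in RefSeq, and 467 of them (98.9%) had the strand of their gene, as had 99.4% of all 22047 named probes so checked.

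The position of the word in the probe was followed in 3 bins of start base. For ACTTGA the median log2 change less no-site probes was -0.048 where the word started at bases 1 to 18 (67 probes), -0.054 at bases 19 to 36 (74 probes) and -0.071 at bases 37 to 55 (63 probes). In these bins 9 (13.4%), 6 (8.11%) and 5 (7.94%) of the probes fell, against 5.02% to 5.06% of no-site probes at like GC content. For TACTTG the medians were 0.062 (75 probes), 0.033 (64 probes) and -0.005 (75 probes), and 2 (2.67%), 1 (1.56%) and 7 (9.33%) fell, against 5.09% to 5.54% of no-site probes.

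The bases around the word were examined in the same way. Where the A and T share of the 15 bases on each side was in its lowest bin, 53.3% or less, the median for ACTTGA was -0.028 (82 probes). In the middle bin, up to 62.5%, it was -0.086 (62 probes), and above that -0.061 (60 probes). The medians for TACTTG were 0.043, 0.016 and 0.036 in these bins, all above 0. Split by the base that follows, ACTTGA gave -0.051 before a C (53 probes), -0.049 before a G (85 probes) and -0.066 before a T (63 probes). Among probes split by brightness, the median for ACTTGA was -0.075 for the dim, -0.057 for the middle and -0.049 for the bright probes, and for TACTTG it was 0.050, 0.057 and -0.001. Split by the G and C content of the probe, ACTTGA gave -0.066 (low, 59 probes), -0.062 (middle, 109 probes) and -0.031 (high, 36 probes). TACTTG gave -0.004 (88 probes), 0.0475 (99 probes) and 0.062 (27 probes) in these bins. In the low bin it had 0.032 in the first experiment and 0.012 in the second. The sign for ACTTGA over both experiments was thus the same in each of these bins. By experiment it was not the same for probes of high G and C content, with -0.14 in the first and 0.018 in the second. The dim probes had -0.12 and -0.012, and those in the lowest bin of A and T share -0.088 and -0.008. For TACTTG the bright probes lay at the no-site level, with 0.006 in both experiments, and the last bin of start base had -0.017 in the first experiment and 0.009 in the second.

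Rag2 encodes a subunit of the recombinase that cuts immunoglobulin genes for rearrangement, and its probe, with TACTTG at bases 44 to 49, had the largest fall. The probe maps to chr2:101470723-101470782 on the plus strand of mm9, the mouse build of the array design. Its log2 intensity was 9.37 and 9.35 in the control arrays, 6.04 and 5.96 with miR-26a and 9.33 and 9.60 with the sponge. Both miR-26a arrays thus lay far below the other 4, and both remained well above background. The log2 change with miR-26a was -3.36 (SE 0.10, adjusted p = 0.00105), a 10.3-fold lower intensity, and it passed the limit without the block and without any 1 array. With normexp background correction it was -2.56, a 5.88-fold lower intensity. With the sponge the log2 change was 0.10 (SE 0.10, adjusted p = 0.66).

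Rasl10a, a gene for a small GTPase of the Ras superfamily, had ACTTGA in the last 6 bases of its probe at chr11:4960167-4960226. Log2 intensities were 8.39 and 8.69 in control arrays, 6.62 and 7.24 with miR-26a and 8.03 and 8.59 with the sponge. The miR-26a arrays were the lowest in both experiments, and the log2 change was -1.61 (SE 0.10, adjusted p = 0.00317), or 0.0581 for the adjusted p without the block. Fam117a, at chr11:95242702-95242761, gave 6.66 and 6.69 in control arrays, 5.47 and 5.06 with miR-26a and 6.40 and 7.01 with the sponge, a log2 change of -1.41 (SE 0.23, adjusted p = 0.0223) with miR-26a. For this dim probe the change was -0.66 with normexp (adjusted p = 0.00644), and the adjusted p was 0.0529 without the block, 0.145 without control replicate 1 and 0.129 without control replicate 2.

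Ero1lb encodes an oxidoreductase of the endoplasmic reticulum that helps to form disulfide bonds, and its probe at chr13:12701235-12701294 gave 10.52 and 10.77 in control arrays, 9.48 and 9.56 with miR-26a and 10.56 and 10.96 with the sponge. The groups with and without miR-26a did not overlap, and the log2 change was -1.13 (SE 0.09, adjusted p = 0.00571). Eif2s1, the gene for the alpha subunit of translation initiation factor eIF2, carries TACTTG and gave 11.65 and 11.52 in control arrays, 10.73 and 10.77 with miR-26a and 11.76 and 11.69 with the sponge. Its log2 change was -0.84 (SE 0.07, adjusted p = 0.0066). Glb1, which encodes the lysosomal beta-galactosidase, gave 11.10 in both control arrays, 10.34 and 10.26 with miR-26a and 11.04 and 11.08 with the sponge, a log2 change of -0.80 (SE 0.07, adjusted p = 0.00648). B3gnt5, a gene for a glycosyltransferase of glycolipid synthesis, gave 8.49 and 8.76 in control arrays and 7.28 and 8.0 with miR-26a, a log2 change of -0.98 (SE 0.12, adjusted p = 0.0117). In all of these genes the sponge arrays lay above the miR-26a arrays. The B3gnt5 call was lost without the block (adjusted p = 0.139), and without control replicate 1 or control replicate 2 none of the 4 passed, with adjusted p between 0.0548 and 0.0923.

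Fbxl19 encodes an F-box protein that binds CpG islands. Its ACTTGA probe at chr7:134912382-134912441 gave 10.38 and 10.35 in control arrays, 9.27 and 9.26 with miR-26a and 10.33 and 10.36 with the sponge. The log2 change was -1.11 (SE 0.07, adjusted p = 0.00317) and, like that of Rag2 and Rasl10a, passed the limit after leaving out any 1 array. Mgst1, a gene for a microsomal glutathione transferase, carries TACTTG and had a log2 change of -0.96 (SE 0.09, adjusted p = 0.00697). Evi5 encodes a Rab GTPase-activating protein. Its dim TACTTG probe gave 5.71 and 6.08 in control arrays and 5.20 and 4.92 with miR-26a. Its log2 change of -0.83 (SE 0.17, adjusted p = 0.0385) became -0.31 with normexp (adjusted p = 0.0465). It became -0.52 without control replicate 2 and -0.66 without miR-26a replicate 2. The Evi5 call was lost in both cases and without either sponge array. With well above background asked on all 6 arrays and no signal limit, the call was also lost (adjusted p = 0.0993). Tubb2b, a beta-tubulin gene, had a log2 change of -0.80 (SE 0.13, adjusted p = 0.0216), and Ccdc28a, with TACTTG, one of -0.71 (SE 0.07, adjusted p = 0.00826). Without the block the adjusted p was 0.0596 for Mgst1, 0.0827 for Evi5, 0.0898 for Tubb2b and 0.065 for Ccdc28a, and Mgst1, Tubb2b and Ccdc28a also failed without control replicate 1 or control replicate 2 (0.0687 to 0.143).

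The other named probes that fell had log2 changes between -0.69 and -0.34. They include St3gal6, a sialyltransferase gene (-0.69), Mtx2, which encodes a protein of the outer mitochondrial membrane (-0.61), and Pik3ip1, whose product inhibits PI3K (-0.59), all with ACTTGA. Ikbkg, the gene for the regulatory subunit of the kinase complex that activates NF-kappaB, carries TACTTG and had a log2 change of -0.49, while the Ikbkg probe with no site had 0.10 and was not among the falls. The 30 falls hold 27 probes of named genes.

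Of the 10 probes that rose, 8 carry gene names, and Tnni2 had the largest rise. It encodes the fast skeletal muscle form of troponin I. Its TACTTG probe at chr7:149630251-149630310 gave 8.93 and 8.92 in control arrays, 9.84 and 10.05 with miR-26a and 9.08 and 9.02 with the sponge. Both miR-26a arrays were above the other 4, and the log2 change was 1.02 (SE 0.09, adjusted p = 0.0066). Mmd, a gene named for its rise in maturing macrophages, gave 8.77 and 8.79 in control arrays, 9.33 and 9.39 with miR-26a and 8.97 and 8.60 with the sponge, a log2 change of 0.58 (SE 0.12, adjusted p = 0.0441).

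Gsr, which encodes glutathione reductase, was the single probe with ACTTGA that rose. It gave 10.66 and 10.44 in control arrays, 11.04 and 11.00 with miR-26a and 10.63 and 10.21 with the sponge, a log2 change of 0.47 (SE 0.10, adjusted p = 0.0486). The other rises shown above were Camta2, a calmodulin-binding transcription activator (0.43), Ndufaf4, an assembly factor of respiratory complex I (0.38), Dnajc27, a gene of the DnaJ family (0.37, or 0.16 with normexp), and Pycrl, an enzyme of proline synthesis (0.32). All of these carry TACTTG, as does Gm7120, which had a log2 change of 0.40 (SE 0.07, adjusted p = 0.026). Without the block, Tnni2 alone among the 7 rises shown above kept an adjusted p under 0.05, and without control replicate 1 or without control replicate 2 none of the 7 did.

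Members and other probes of their own genes were compared for 147 genes that have a tested 6mer probe and a tested probe with no site, in 148 pairs because Mef2d has a probe with each word. A pair was 1 probe of each kind in 116 cases. In 30 pairs there were 2 to 5 no-site probes and in 2 pairs 2 probes with the word, and the log2 changes of such probes were averaged. A kind was counted as fallen where any of its probes fell. The kinds measure the same gene at different places. Among the 68 genes with ACTTGA, the median difference in log2 change between the kind with the word and the kind without was -0.011, and among the 80 genes with TACTTG it was -0.008. The ACTTGA probes of these genes had a median log2 change of -0.0087, and their no-site probes one of 0.0013. Over all 204 tested probes with ACTTGA the median was -0.050, so these genes show little of that shift. For TACTTG the medians were 0.047 with the word and 0.063 without, beside 0.055 over all 214 tested probes. The 6mer value lay below the no-site value in 83 of the 148 pairs. In 9 of the 148 pairs a 6mer probe fell, beside 5.14% of all probes tested. That share counts single probes, so it is not a like measure for pairs with several probes of a kind. In 6 of the 9 a no-site probe fell too, in 4 of 4 with ACTTGA and in 2 of 5 with TACTTG. Conversely, a no-site probe fell in 10 pairs, and in 4 of these, Atg12, Ccne1, Cpne2 and Nus1, the 6mer probe was not among the falls. For Nus1, with TACTTG, the log2 change was 0.12 on the 6mer probe and -0.75 on the no-site probe.

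Single genes show both patterns. The Fbxl19 probe with no site had a log2 change of -1.0 (SE 0.10, adjusted p = 0.00748), beside -1.11 for the probe with ACTTGA. For Mgst1 it was -1.22 (SE 0.12, adjusted p = 0.00748), beside -0.96. The Eif2s1 probe with no site, in contrast, had a log2 change of 0.07 (SE 0.09, adjusted p = 0.662), beside -0.84 for the probe with TACTTG. Among the rises, Gsr and Ndufaf4 rose on both probes, with 0.48 and 0.46 on the no-site probe, while the no-site probe of Mmd gave 0.06 (SE 0.07, adjusted p = 0.618).

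Few genes of the pathways tied to miR-26 or to pre-B cells carry a 6mer on a tested probe. Of 31 literature targets of miR-26, E2f7 and Ccne1 do. E2f7 encodes a repressor of the E2F family, and its probe, with TACTTG, gave 12.21 and 12.24 in control arrays, 11.71 and 11.76 with miR-26a and 12.28 and 12.30 with the sponge. Its log2 change was -0.49 (SE 0.07, adjusted p = 0.0146), while the E2f7 probe with no site had -0.11 (SE 0.17, adjusted p = 0.743). Ccne1 encodes cyclin E1, and its ACTTGA probe gave 9.21 and 9.24 in control arrays, 8.75 and 8.92 with miR-26a and 9.48 and 9.24 with the sponge. Its log2 change was -0.39 (SE 0.11, adjusted p = 0.0874), and the no-site probe of the gene fell by 0.60 on the log2 scale (SE 0.07, adjusted p = 0.0121). Over all 41 tested probes of the literature targets, with or without a site, 13 (31.7%) fell and 0 rose, against 5.14% and 4.5% of all probes tested. This list and the lists below were chosen with earlier results of these data known, so their shares were not tested.

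In the cell cycle list of 47 genes, 4 genes have a tested 6mer probe and 2 of these fell, E2f7 and Cdc25b. Cdc25b encodes a phosphatase that activates cyclin-dependent kinases, and its ACTTGA probe had a log2 change of -0.58 (SE 0.09, adjusted p = 0.0236), beside -0.03 for Rbl1 (SE 0.09, adjusted p = 0.861), a pocket protein gene. Among 55 tested probes of the list as a whole, 6 (10.9%) fell and 2 (3.64%) rose. In the list of 44 genes of pre-B cells and recombination, Rag2 fell, and the TACTTG probe of Btk, the gene for a kinase of B cell receptor signaling, had a log2 change of -0.12 (SE 0.07, adjusted p = 0.345). That list had 54 tested probes, of which 12 (22.2%) fell and 1 (1.85%) rose. Rheb, the GTPase that activates mTOR, was the single gene of 38 in the PI3K, AKT and mTOR list, on 2 overlapping probes that share 1 TACTTG word, which both gave a log2 value of -0.03 for the change (adjusted p = 0.875 and 0.856). Of the 50 tested probes of that list, 5 (10%) fell and 1 (2%) rose. Edc4, a scaffold of mRNA decapping and the single gene of the silencing machinery, had a log2 change of 0.01 (SE 0.07, adjusted p = 0.944), and of the 31 tested probes of its list 1 (3.23%) fell and 3 (9.68%) rose.

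With the sponge, none of the 418 probes passed an adjusted p under 0.05 in limma, against 0% of all 20168 probes in the lower and 0.00992% in the higher direction. At an unadjusted p under 0.05, 27 of the 418 (6.46%) were lower, against 8.72% of all probes, and 31 (7.42%) were higher, against 7.38%. With ACTTGA, 14 (6.86%) were lower and 22 (10.8%) higher, against 7.80% and 7.45% of no-site probes at like GC content. With TACTTG, 13 (6.07%) were lower and 9 (4.21%) higher, against 6.80% and 8.38%. The difference between the words was not tested. The sponge and miR-26a comparisons share the control arrays, so their values are given side by side and not correlated.

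Less the probes with no site at like GC content, the median log2 change with the sponge was 0.014 for ACTTGA, with 0.023 and 0.004 in the experiments, and -0.023 for TACTTG, with -0.024 and -0.001. Beside them the medians were 0.050 for the 7mer-m8, 0.017 for the 7mer-A1 and 0.052 for the 8mer. The medians of both 6mers thus lay within 0.03 of the no-site level. Without sponge replicate 1, that of ACTTGA turned to just below 0 and that of TACTTG shrank to -0.0071. With no GC correction the TACTTG median was -0.0069. By position, ACTTGA gave 0.033, 0.012 and -0.025 from the first to the last bin of start base, and TACTTG gave -0.003, -0.059 and -0.005.

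Fam92a, a gene for a membrane-shaping protein of the BAR family, had the largest rise with the sponge among the 6mer probes. Its dim TACTTG probe at chr4:12092824-12092883 gave 5.57 and 5.82 in control arrays, 5.77 and 5.86 with miR-26a and 6.62 and 6.61 with the sponge. Both sponge arrays were above the other 4, with a log2 change of 0.92 (SE 0.09, adjusted p = 0.107) with the sponge and 0.12 (SE 0.09, adjusted p = 0.432) with miR-26a. On the Fam92a probe with no site the log2 change with the sponge was 0.41 (adjusted p = 0.222). With normexp the change of the TACTTG probe was 0.50.

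The other probes named for the sponge were changed at an unadjusted p under 0.05, in limma, and at no adjusted limit. Values above control were given by Sec24a, a gene of the coat of transport vesicles (log2 change 0.69, SE 0.19, adjusted p = 0.23), Hmgcll1, a relative of the lyase of ketone body synthesis (0.39), Zfp871, a zinc finger gene (0.34), and Ccl25, a chemokine gene (0.32), all with ACTTGA. Values below control were given by Mphosph9, a phosphoprotein gene (-0.51, SE 0.08, adjusted p = 0.191), and Lipe, the hormone-sensitive lipase gene (-0.45), with ACTTGA. Pkhd1, the fibrocystin gene (-0.44), Pycard, an inflammasome adaptor gene (-0.39), and Rab2b, a small GTPase gene (-0.34), carry TACTTG. With normexp the values moved by over 1.5 times for Sec24a (0.41), Hmgcll1 (0.19), Ccl25 (0.17), Mphosph9 (-0.25), Lipe (-0.20), Pkhd1 (-0.19) and Pycard (-0.24), and Hmgcll1, Ccl25 and Lipe no longer passed the unadjusted limit. Hmgcll1 (0.181) and Lipe (0.0687) also missed it without the block. Fam92a, Mphosph9 and Pkhd1 passed it after leaving out any 1 array. The others missed it without control replicate 1 (Hmgcll1, Zfp871, Ccl25, Pycard and Rab2b, unadjusted p between 0.0524 and 0.145), control replicate 2 (Sec24a, Hmgcll1 and Ccl25, 0.0711 to 0.135), sponge replicate 1 (Pycard and Rab2b, 0.0611 and 0.0551) or sponge replicate 2 (Hmgcll1, Ccl25 and Lipe, 0.0577 to 0.276). Leaving out an array moved the log2 change by over 1.5 times for Sec24a (1.05 without sponge replicate 1, 0.34 without sponge replicate 2), Hmgcll1 (0.60 and 0.19 likewise), Ccl25 (0.16 without sponge replicate 2) and Pycard (-0.23 without sponge replicate 1). On their probes with no site, Sec24a had a log2 change of -0.02 and Mphosph9 one of 0.14 with the sponge. The no-site probe of Ccl25 had a log2 change of 0.21 with the sponge (unadjusted p = 0.0226 in limma), the same direction as its ACTTGA probe. With miR-26a, Hmgcll1 had a log2 change of -0.20 (adjusted p = 0.431) and Mphosph9 one of -0.31 (adjusted p = 0.0708). None of the 12 named probes that fell most with miR-26a was changed with the sponge at an unadjusted p under 0.05, and their log2 changes with the sponge ran from -0.23 for Rasl10a to 0.28 for Tubb2b. At that limit, 8.72% of all 20168 probes tested were lower and 7.38% higher with the sponge. Among all 30 falls, 4 passed it, 2 lower and 2 higher, all with ACTTGA. Mtx2 (0.22) and Fam45a (0.29) were above control, and Tnfrsf26 (-0.26) and an unnamed probe on chromosome 5 (-0.37) below it.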

How the data were processed

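RNA of 6 cultures was hybridized to Agilent arrays for mouse with 1 colour. The authors deposited the scanner output (Agilent Feature Extraction 10.7.1.1), in which the intensity of each spot is given with its background subtracted (the processed signal), together with 1 table of quantile-normalized intensity on a linear scale. Per the methods, data were quantile-normalized, log2-transformed and set against the control of each experiment. Names of genes and coordinates (mm9) were read from the array design, and 276 probe names came from RefSeq accessions. Mature microRNA sequences came from RefSeq.

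Here, control spots and outlier-flagged spots were left out, unless all spots of a probe were flagged (0 to 7 probes per array). Quantile normalization was applied to the processed signals, followed by log2 and the mean over the spots of a probe. A probe entered the test if 1 array or more had it well above background and if its signal exceeded 50 on 4 of 6 arrays or more, since the methods give that number unclearly. limma 3.58.1 in R 4.3.3 was fitted over 6 arrays with the experiment as a block, with empirical Bayes moderation and Benjamini-Hochberg adjustment over all 20168 probes tested. The label's replicate number was taken as the experiment, which the methods use as pairing. The control titles name further accessions beside their own, so whether the control arrays come from the same experiments as the arrays of the same number rests on the wording of the methods. Deviations of same-numbered arrays from group means correlated at 0.379 (control and miR-26a), 0.588 (control and sponge) and 0.454 (miR-26a and sponge). The labels do not say that replicates are separate cultures, while the methods call them biological replicates. The number of arrays limits the precision.

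Each member's log2 change less the median change of tested no-site probes with the same number of G and C bases was summarized by its median, with no test. Members and gene lists were chosen with earlier results of these data known. Named were the 12 member probes with gene names that fell and rose most with miR-26a (adjusted p under 0.05, same direction in both experiments, of which 7 rose), the 5 of each direction with the sponge (unadjusted p under 0.05) and list members, passing over clone names. Other genes are given as examples and were chosen after their values were seen. Alternatives were no block, scaling to the 75th percentile, normexp (offset 50), the deposited normalized values, other filters, array weights, a GC trend removed, other GC standards, 1 probe per gene and leaving out each array. The fit was tested on simulated data. Python 3.11.15, numpy 2.4.6 and pandas 2.3.3 assembled the tables. Some genes of the marker lists are not reported here.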

Additional observations from a re-analysis of the deposited data

How the results depend on the processing

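Directions of the 29 named changes were kept under all alternatives run on them, and the deposited normalized values gave the same counts as the scanner signals. For the counts that fell and rose with miR-26a (30 and 10 of the 418 probes), the fit with no replicate block gave 6 and 1, of which ACTTGA had 3 and 0 and TACTTG 3 and 1. Dropping the signal limit while asking for well above background on all 6 arrays, which tests 24974 probes in place of 20168, gave 14 and 3 (ACTTGA 9 and 0, TACTTG 5 and 3), and all probes without a filter gave 0 and 0 for both words. Array weights gave 19 that rose (5 and 14), normexp 16 (ACTTGA 4), removal of the GC trend 3 with ACTTGA, and a signal above 50 on 2 arrays 0 with ACTTGA. Leaving out each array gave 3 to 28 that fell (ACTTGA 2 to 19, TACTTG 1 to 9) and 0 to 7 that rose (0 to 1 and 0 to 6). The counts that fell were lowest without control replicate 1 (5) and control replicate 2 (3), and 18 without either sponge array. The sponge gave 0 to 1 higher probes, with 1 when either miR-26a array was left out.

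The median log2 change less no-site probes with miR-26a stayed below 0 for ACTTGA (-0.085 to -0.047 leaving out each array, -0.014 for all probes) and above 0 for TACTTG. For TACTTG it was 0.012 to 0.041 leaving out each array, 0.030 with scaling to the 75th percentile, 0.024 with normexp, 0.0081 for all probes and 0.018 for the brightest probe per gene. For both words together it was -0.021 to -0.0047 leaving out each array, -0.021 without the signal limit, -0.00022 for all probes and -0.023 for the brightest probe per gene. With the sponge it was -0.0044 to -0.000196 for both words together leaving out each array, -0.0052 with normexp, 0.0017 for all probes and 0.0018 with no GC correction. For ACTTGA with the sponge it was -0.00036 to 0.029 leaving out each array, and for TACTTG -0.024 to -0.0071, 0.0021 for all probes and -0.0069 with no GC correction. Of the 19 named miR-26a changes, 6 kept an adjusted p under 0.05 with no replicate block, 4 without control replicate 1, 3 without control replicate 2 and 0 for all probes. With normexp the log2 change moved by over 1.5 times for Fam117a (-0.66), Evi5 (-0.31) and Dnajc27 (0.16). The causes were not tested. The 706 members not tested, of which 516 were above background on no array, are not described.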

Other observations

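Of the 40 6mer probes changed by miR-26a, 5 have no gene name, 3 of them on long intergenic RNA intervals. These were named after their values were seen. The interval probe at chr5:107907676-107907735, with ACTTGA, had a log2 change of -0.55 (SE 0.07, adjusted p = 0.0151) with miR-26a and one of -0.37 (SE 0.07, adjusted p = 0.22) with the sponge. The interval probe at chr14:49315252-49315311, also with ACTTGA, was bright, at 13.35 and 13.26 in control arrays and 13.04 and 12.78 with miR-26a, a log2 change of -0.39 (SE 0.08, adjusted p = 0.0365). The interval probe at chr1:88187466-88187525, with TACTTG, had a log2 change of 0.49 (SE 0.07, adjusted p = 0.0151).

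The remaining unnamed probes lie on other transcripts. The one at chr17:15735071-15735130, with ACTTGA, had a log2 change of -0.39 (SE 0.07, adjusted p = 0.0341). The one at chr6:69631546-69631605, with TACTTG, had a log2 change of 0.56 (SE 0.07, adjusted p = 0.0114) with miR-26a and of -0.36 (SE 0.07, adjusted p = 0.214) with the sponge, and its log2 intensities were 6.73 and 6.86 in control arrays, 7.26 and 7.45 with miR-26a and 6.32 and 6.55 with the sponge.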
